A study of Mus musculus with 9 samples.

Results

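The genes described here are 10 genes that mark the kidney tubule from the thick ascending limb of the loop of Henle to the end of the collecting duct: Umod and Slc12a1 of the thick limb, Slc12a3, Calb1 and Pvalb of the distal convoluted and connecting tubules, and Aqp2, Aqp3, Scnn1a, Scnn1g and Slc4a1 of the collecting duct. They were chosen by name, as known markers of these segments, and not by their values. They are 10 of the 54532 gene identifiers in the count tables, and all 10 passed the filter on low counts that left 16646 genes for testing.

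RNA was taken from kidney tissue of C57BL/6J-background mice, and the study's methods do not say which part of the organ was used. Polyadenylated RNA was sequenced as read pairs in 9 libraries, 3 per group. Wild-type (WT) mice carried an intact Trex1 gene and were bought in, aged several weeks, from another supplier than the mutants; they are not stated to be littermates of the mutants or to have been injected. Trex1-/- (KO) mice lack a DNA exonuclease and develop interferon-driven inflammation from unremoved DNA that activates the cGAS and STING proteins. Starting at about a month of age they received intraperitoneal injections every day for 2 weeks, of either a PBS-based vehicle (PBS-treated KO) or SN-011, a small molecule that blocks STING. The labels give neither sex nor litter, so that p-values measure only the spread between these libraries. PBS-treated KO and WT kidneys differ in Trex1 but also in source and possibly in injection, and their comparison cannot tell these apart. The comparison of SN-011 with PBS asks whether the drug moves these genes. Both comparisons share the PBS-treated libraries, and both comparisons with wild type share the WT libraries.

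The tubule segments downstream of the loop's tip adjust the salt, water and acid content of urine. The thick ascending limb takes up sodium, potassium and chloride without water, the distal convoluted tubule takes up more sodium chloride and handles calcium and magnesium, and the collecting duct sets the final water, sodium and acid excretion under vasopressin and aldosterone. Principal cells of the duct carry water channels and the epithelial sodium channel (ENaC), while intercalated cells between them move acid and bicarbonate.

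The libraries held 16118813 to 21928965 counts and reads of 23180 to 24657 genes. No library, of any group, held a count of Trex1 itself (0 of 9), so the tables give no check of the genotype. The libraries stood apart in one way that crosses the groups: Uty, Eif2s3y, Kdm5d and Ddx3y, 4 genes of the Y chromosome, summed to 157 to 203 counts per 1000000 (CPM, scaled by TMM factors as all CPM here) in WT replicate 3, all 3 PBS-treated KO libraries and SN-011 replicate 2, and to at most 0.377 CPM in the other 4, which instead held 412 to 498 CPM of Xist, the RNA of the silenced X chromosome. All PBS-treated KO libraries thus carried Y-linked reads, against 1 of 3 in each of the other groups. Comparisons with these KO libraries therefore cannot be fully told apart from that split. Markers of other cell types also moved: 14 leukocyte genes summed to 378 to 484 CPM in WT, 897 to 1192 in PBS-treated KO and 524 to 984 in SN-011-treated KO kidneys, and 4 of the 12 tested were higher in PBS-treated KO than in WT, of which Jchain, of plasma cells, was also higher in SN-011-treated KO than in WT (2.24, edgeR adjusted p = 0.0185). Of 8 endothelial genes, Plvap was lower in SN-011-treated KO than in WT (-0.53, edgeR adjusted p = 0.0383). The 6 adipocyte genes tested had medians of -1.01 and -1.14 for PBS-treated and SN-011-treated KO against WT, with 6 of 6 below 0 in either and 0 past the edgeR test (2 and 1 at an unadjusted p under 0.05). The 18 proximal tubule genes summed to 27570 to 32890, 28690 to 34740 and 18280 to 43090 CPM. The widest spread was among the SN-011 libraries, where Kap alone ran at 648, 18800 and 3610 CPM. Of these genes 1, the glucose transporter gene Slc5a2, was lower in PBS-treated KO than in WT (-0.71, edgeR adjusted p = 0.0163). The 14 genes of the thin limb and inner medulla summed to 1420 to 1586, 1534 to 1722 and 1739 to 2255 CPM. The higher sums came largely from Slc5a3, with group means of 376, 384 and 696 CPM, and Slc6a6, with 365, 547 and 549. Medians of the list against WT were -0.24 for PBS-treated and -0.28 for SN-011-treated KO, with 8 and 9 of 14 below 0. In PBS-treated KO 2 of the genes were lower than in WT, Fst (-1.22, edgeR adjusted p = 0.0118) and the urea transporter gene Slc14a1 (-1.31, edgeR adjusted p = 0.0150). Fst was lower in SN-011-treated KO than in WT as well (-1.28, edgeR adjusted p = 0.0185). Of 10 tubular injury genes 0 passed the edgeR test between groups, but WT replicate 3, the 1 WT library with Y-linked reads, stood apart for some. Havcr1 was at 16 CPM there against 1.65 and 1.45 in the other WT libraries, and Lcn2 at 28.2 against 5.42 and 4.56. Krt20, Vcam1, Sox9, Clu and Cd44 were not highest in it among the WT libraries. The part of these differences in the results was not tested. In unsorted tissue, fewer cells of a type and less RNA per cell cannot be told apart.

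None of the 10 genes passed an adjusted p of 0.05 in any comparison (edgeR's quasi-likelihood F test, Benjamini-Hochberg adjustment over 16646 genes). The background was 313 genes, or 1.88% of those tested, between PBS-treated KO and WT, 0 genes, or 0%, between SN-011 and PBS, and 213 genes, or 1.28%, between SN-011 and WT. At an unadjusted p of 0.05 the members counted 2, 0 and 1, beside 15.2%, 11.4% and 18.0% of all genes. For SN-011 against PBS those 11.4% were 1905 genes, and other tools called 183 genes (DESeq2) or 132 genes (edgeR's exact test), again with 0 of the members. The libraries of both groups did not overlap for 3 of 10 members between PBS-treated KO and WT, for 0 of 10 between SN-011 and PBS, and for 2 of 10 between SN-011 and WT, where the shares of all genes were 25.4%, 16.1% and 21.7%. The members' counts lay near these backgrounds.

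**Figure D1:**
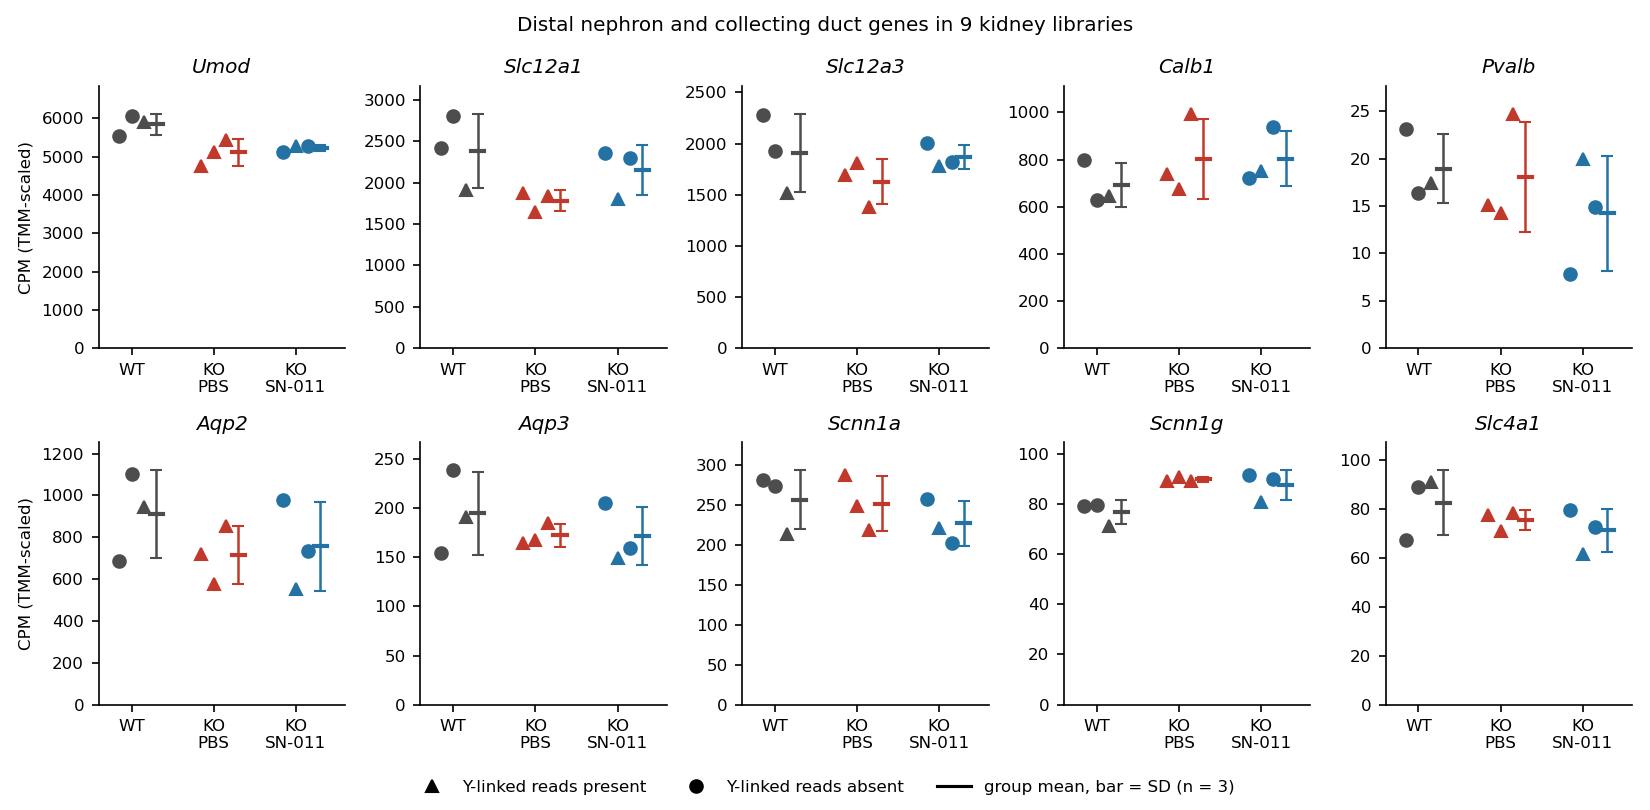
Expression of the 10 genes in each library. Each panel plots CPM scaled by TMM factors (y axis, starting at 0) for wild type (WT), PBS-treated Trex1-/- (KO PBS) and SN-011-treated Trex1-/- (KO SN-011) kidneys; points are libraries, triangles those with Y-linked reads and circles those without, and the bar beside them is the mean with its SD (n = 3). Umod of all 3 WT libraries sat above the mutants, Slc12a1 sat lower in triangles than in circles, and Scnn1g of WT sat below both mutant groups.

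Umod, Slc12a1 and the water channel genes Aqp2 and Aqp3 are those on which the description below turns, and the stretches just upstream of their annotated starts are printed with the gene. Of the members 7 had an entry in the RefSeq promoter table (GRCm38.p6), and each printed stretch ends at the base before the annotated gene. Motifs were searched on both strands of the 250 bases before each RefSeq start, in the members as in all promoters, and the printed stretches, some of them shorter, lie within these windows. Capitals mark the letters of the motifs: TATAAA (core promoter box), TGACGTCA and its shorter form TGACG (cyclic AMP response element), AAGGTCA (estrogen-related receptor site), TGTTTAC (forkhead site) and AGATAA (site of GATA factors); the steroid hormone receptor element was searched too. TGACG is also held in TGACGTCA, and no other pair of these overlaps.

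Umod encodes uromodulin, the most abundant protein of normal urine, which the thick limb secretes. The gene lies on the minus strand at chr7:119462711-119479282 (GRCm38) and has 12 exon blocks, of which 539 bases are shared with the antisense gene Gm44588, so that reads there cannot be assigned to one of them: the study's methods name a strand-specific preparation, but the strand setting of the counting is not given. Slc12a1 encodes NKCC2, the furosemide-sensitive cotransporter through which the thick limb takes up salt. It lies on the plus strand at chr2:125152505-125230002, with 28 exon blocks and no exon base shared with another gene. Upstream of Umod (chr7:119479283-119479512, minus strand) none of the searched motifs was found, so it has no capitals, and upstream of Slc12a1 (chr2:125152350-125152504, plus strand) 1 forkhead site was found, at position -228 from the RefSeq start. The forkhead site was present in 3.17% of 32536 mouse promoters.
Umod: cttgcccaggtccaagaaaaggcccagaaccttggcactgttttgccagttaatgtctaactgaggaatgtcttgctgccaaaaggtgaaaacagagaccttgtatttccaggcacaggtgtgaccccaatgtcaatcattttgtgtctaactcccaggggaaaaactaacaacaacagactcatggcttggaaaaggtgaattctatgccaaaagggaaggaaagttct
Slc12a1: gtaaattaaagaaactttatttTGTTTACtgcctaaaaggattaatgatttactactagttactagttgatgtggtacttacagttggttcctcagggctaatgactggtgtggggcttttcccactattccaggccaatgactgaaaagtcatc

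Umod was measured at 5546, 6069 and 5901 CPM in the WT libraries, 4745, 5130 and 5440 in the PBS-treated KO libraries and 5122, 5281 and 5267 in the SN-011 libraries. Every mutant library lay below every WT library, and the SN-011 libraries fell within the span of the PBS libraries. The means were 5839 ± 267 (SD, n = 3), 5105 ± 348 and 5223 ± 88.2 CPM. The log2 fold change of PBS-treated KO against WT was -0.19 (SE 0.109, 95% interval -0.44 to 0.048, edgeR adjusted p = 0.433), and that of SN-011 against PBS was 0.033 (interval -0.21 to 0.27, edgeR adjusted p = 0.931). Against WT the SN-011 libraries differed by -0.16 (interval -0.40 to 0.081, edgeR adjusted p = 0.479). Umod was close to level across the Y-linked split, at 0.023 (SE 0.104) on the log2 scale for libraries with such reads minus those without.

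Slc12a1 stood at 2412, 2807 and 1913 CPM in WT, 1873, 1641 and 1833 in PBS-treated KO and 2356, 1798 and 2297 in SN-011-treated KO kidneys. The PBS-treated libraries were all below the WT libraries, the lowest WT value being that of replicate 3, and SN-011 replicate 2 lay beside the PBS libraries while the other two lay with WT. The log2 fold change of PBS-treated KO against WT was -0.42 (SE 0.160, interval -0.77 to -0.061), with an unadjusted edgeR p of 0.0257 and an adjusted p of 0.253. SN-011 against PBS gave 0.27 (interval -0.083 to 0.63, edgeR adjusted p = 0.549) and SN-011 against WT -0.14 (interval -0.50 to 0.21, edgeR adjusted p = 0.688).

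The Slc12a1 values also divided by the Y-linked reads. The 5 libraries with Y-linked reads ran from 1641 to 1913 CPM and the 4 without from 2297 to 2807, with no overlap; 3.86% of all tested genes were likewise lower without overlap, and 8.97% did not overlap in either direction. In the fit with a mean per group and a Y-linked term the difference, with minus without, was -0.41 (SE 0.107), with an unadjusted edgeR p of 0.00295 and an adjusted p of 0.0643. The PBS-treated KO libraries all carried such reads, so group and split coincide in them and they add nothing to the term. It rests on WT replicate 3 and SN-011 replicate 2, each against the other libraries of its group. With that term the fold change of PBS-treated KO against WT became -0.13 (edgeR adjusted p = 0.758) and that of SN-011 against PBS -0.012 (edgeR adjusted p = 0.987). Among the libraries with Y-linked reads alone, 1 WT against 3 PBS, it was -0.10 (edgeR adjusted p = 0.821). The Slc12a1 to Umod ratio of counts was 0.32 to 0.46 over WT libraries, 0.32 to 0.39 over PBS-treated KO and 0.34 to 0.46 over SN-011 libraries.

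The distal convoluted tubule was marked by 3 genes. Slc12a3 encodes NCC, the thiazide-sensitive sodium chloride cotransporter (chr8:94329201-94366214, plus strand, 23 exon blocks). It stood at 2276, 1930 and 1513 CPM in WT, 1689, 1809 and 1385 in PBS-treated KO and 2006, 1785 and 1823 in SN-011-treated KO kidneys, and all 3 groups overlapped. Log2 fold changes were -0.23 (SE 0.160, interval -0.58 to 0.13, edgeR adjusted p = 0.540) for PBS-treated KO against WT, 0.20 (interval -0.15 to 0.56) for SN-011 against PBS and -0.027 (interval -0.38 to 0.33) for SN-011 against WT. With the Y-linked term the first became -0.025 and the second 0.014, and the term itself was -0.28 (SE 0.140, edgeR adjusted p = 0.320).

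Calb1 encodes calbindin-D28k, which binds calcium in distal convoluted and connecting tubule cells (chr4:15881264-15908064, plus strand, 10 exon blocks). Its values were 800.0, 630 and 646 CPM in WT, 737, 676 and 993 in PBS-treated KO and 722, 750 and 939 in SN-011 libraries, the highest in replicate 3 of either mutant group. The groups overlapped, at 0.21 (SE 0.169, interval -0.16 to 0.59, edgeR adjusted p = 0.595) for PBS-treated KO against WT and 0.0030 (interval -0.37 to 0.38) for SN-011 against PBS; with the Y-linked term these were 0.31 and -0.097. Slc12a3 exceeded Calb1 in counts in every library, by 2.34 to 3.06 times in WT, 1.39 to 2.68 times in PBS-treated KO and 1.94 to 2.78 times in SN-011-treated KO kidneys.

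Pvalb encodes parvalbumin, a calcium buffer of the early distal convoluted tubule that fast muscle fibers also make (chr15:78191114-78206400, minus strand, 5 exon blocks). Its values were 23.1, 16.4 and 17.4 CPM in WT, 15.1, 14.3 and 24.7 in PBS-treated KO and 7.88, 19.9 and 14.8 in SN-011 libraries, from 139 to 489 counts a library. The lowest value was that of SN-011 replicate 1, and the 3 groups overlapped. Intervals were wide: -0.074 (-0.76 to 0.61) for PBS-treated KO against WT, -0.34 (-1.04 to 0.36) for SN-011 against PBS and -0.41 (-1.11 to 0.28) for SN-011 against WT on the log2 scale, with edgeR adjusted p-values of 0.934, 0.719 and 0.532. The first was -0.31 (interval -1.12 to 0.50) and the second -0.15 (interval -0.92 to 0.62) with the Y-linked term. Markers of skeletal muscle were close to absent, 12 genes summing to 1.68 to 8.16 CPM over the 9 libraries, with the fast myosins Myh4 and Myh2 at 0 counts in all of them.

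Aqp2 and Aqp3 encode the water channels of principal cells: aquaporin 2 is moved to the urinary membrane under vasopressin, and aquaporin 3 lets water leave on the blood side. Aqp2 lies at chr15:99579055-99584547 (plus strand, 4 exon blocks) and Aqp3 at chr4:41092722-41098183 (minus strand, 6 exon blocks). Upstream of Aqp2 (chr15:99578806-99579054) the searched letters were TGACG, at position -211 from the RefSeq start, and AGATAA, at position -202, both on the minus strand and so printed as their complements CGTCA and TTATCT. Upstream of Aqp3 (chr4:41098184-41098433) they were TATAAA, at position -29. These motifs were present in 17.9% (TGACG), 9.97% (AGATAA) and 12.3% (TATAAA) of the promoters searched; the full element TGACGTCA, present in 1.56%, was in neither. These windows are shown because the values of both genes ran together.
Aqp2: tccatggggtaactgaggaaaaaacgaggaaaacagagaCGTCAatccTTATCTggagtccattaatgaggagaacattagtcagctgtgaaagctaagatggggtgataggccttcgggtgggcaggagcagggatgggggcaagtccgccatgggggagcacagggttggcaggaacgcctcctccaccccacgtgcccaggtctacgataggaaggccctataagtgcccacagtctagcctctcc
Aqp3: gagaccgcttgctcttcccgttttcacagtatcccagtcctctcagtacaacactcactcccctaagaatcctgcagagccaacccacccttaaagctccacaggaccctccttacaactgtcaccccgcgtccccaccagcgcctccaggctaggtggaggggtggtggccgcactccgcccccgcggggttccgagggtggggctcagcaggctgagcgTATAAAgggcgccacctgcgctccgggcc

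Aqp2 was at 684, 1100.0 and 945 CPM in WT, 718, 574 and 853 in PBS-treated KO and 979, 553 and 735 in SN-011-treated KO kidneys. The groups overlapped, and the WT and the SN-011 libraries each spread more widely than the PBS-treated ones. Log2 fold changes were -0.35 (SE 0.234, interval -0.87 to 0.17, edgeR adjusted p = 0.521) for PBS-treated KO against WT, 0.080 (interval -0.44 to 0.60) for SN-011 against PBS and -0.27 (interval -0.79 to 0.25) for SN-011 against WT. With the Y-linked term PBS-treated KO against WT was -0.18, and SN-011 against PBS was -0.11, the other sign (edgeR adjusted p = 0.843 and 0.936).

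Aqp3 was at 154, 239 and 191 CPM in WT, 164, 168 and 186 in PBS-treated KO and 205, 150 and 160 in SN-011 libraries. Its highest library, WT replicate 2, was also that of Aqp2, and its lowest, SN-011 replicate 2, likewise. The log2 fold changes were -0.18 (SE 0.165, interval -0.54 to 0.19, edgeR adjusted p = 0.661), -0.0077 (interval -0.37 to 0.36) and -0.18 (interval -0.55 to 0.18) in the same order, and the first and second became -0.070 and -0.12 with the Y-linked term. Over the 9 libraries the Pearson r of log2 CPM was 0.90 between Aqp2 and Aqp3, a description over points that share groups and tissue pieces, and the ratio of their counts ran from 3.42 to 4.94. Markers of urothelium, which can carry aquaporin 3, summed to 28.7 to 51.3 CPM without a split by group.

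Scnn1a and Scnn1g encode the alpha and gamma subunits of ENaC, the amiloride-sensitive sodium channel of principal cells. Scnn1a (chr6:125320659-125344943, plus strand, 13 exon blocks) stood at 281, 274 and 214 CPM in WT, 287, 249 and 219 in PBS-treated KO and 258, 221 and 203 in SN-011-treated KO kidneys, with overlapping groups. Its log2 fold changes were -0.027 (interval -0.35 to 0.29), -0.15 (interval -0.47 to 0.17) and -0.17 (interval -0.49 to 0.15) for PBS-treated KO against WT, SN-011 against PBS and SN-011 against WT. With the Y-linked term the first was 0.13, the other sign, and the second -0.29 (interval -0.63 to 0.049).

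Scnn1g (chr7:121734479-121768475, plus strand, 13 exon blocks) varied little within groups: 79.2, 79.9 and 71.5 CPM in WT, 89.5, 91.0 and 89.5 in PBS-treated KO and 91.9, 80.9 and 90.3 in SN-011-treated KO kidneys. All 6 mutant libraries lay above all 3 WT libraries, SN-011 replicate 2 being the lowest of the 6. The log2 fold change of PBS-treated KO against WT was 0.23 (SE 0.0820, interval 0.045 to 0.41), with an unadjusted edgeR p of 0.0195 and an adjusted p of 0.223, and that of SN-011 against WT was 0.19 (interval 0.0069 to 0.37, edgeR adjusted p = 0.264). SN-011 against PBS gave -0.038 (interval -0.22 to 0.14, edgeR adjusted p = 0.895). With the Y-linked term PBS-treated KO against WT was 0.34 (edgeR adjusted p = 0.103) and SN-011 against PBS -0.15 (edgeR adjusted p = 0.610). The third subunit, Scnn1b, ran from 69.1 to 90.3 CPM and overlapped between the groups, at 75.2 to 77.1 CPM in WT, 69.1 to 77.8 in PBS-treated KO and 69.4 to 90.3 in SN-011 libraries. The Scnn1a to Scnn1g count ratio was 2.99 to 3.54 in WT, 2.44 to 3.21 in PBS-treated KO and 2.24 to 2.80 in SN-011-treated KO kidneys.

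Slc4a1 encodes AE1, the chloride and bicarbonate exchanger on the blood side of acid-secreting intercalated cells, and also band 3 of red cells; a count per gene cannot separate the kidney and red-cell forms. It lies at chr11:102348824-102366203 (minus strand, 25 exon blocks) and stood at 67.2, 89.1 and 91.1 CPM in WT, 77.5, 70.8 and 78.1 in PBS-treated KO and 79.3, 61.7 and 72.4 in SN-011-treated KO kidneys, all groups overlapping. The log2 fold changes were -0.13 (SE 0.130, interval -0.42 to 0.16), -0.085 (interval -0.37 to 0.20) and -0.21 (interval -0.50 to 0.075), with edgeR adjusted p-values of 0.688, 0.844 and 0.427. Over the libraries it ran with Aqp2 (r = 0.88) and Aqp3 (r = 0.84). The 13 red-cell markers matched summed to 568 to 1771 CPM in WT, 331 to 680 in PBS-treated KO and 125 to 247 in SN-011-treated KO kidneys, most of it from the globin genes Hba-a1 and Hbb-bs. Both were lower in SN-011 than in WT libraries, at -2.92 and -2.58 (edgeR adjusted p = 0.0205 and 0.0424), and the part of red-cell RNA in the Slc4a1 values was not tested.

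**Figure D2:**
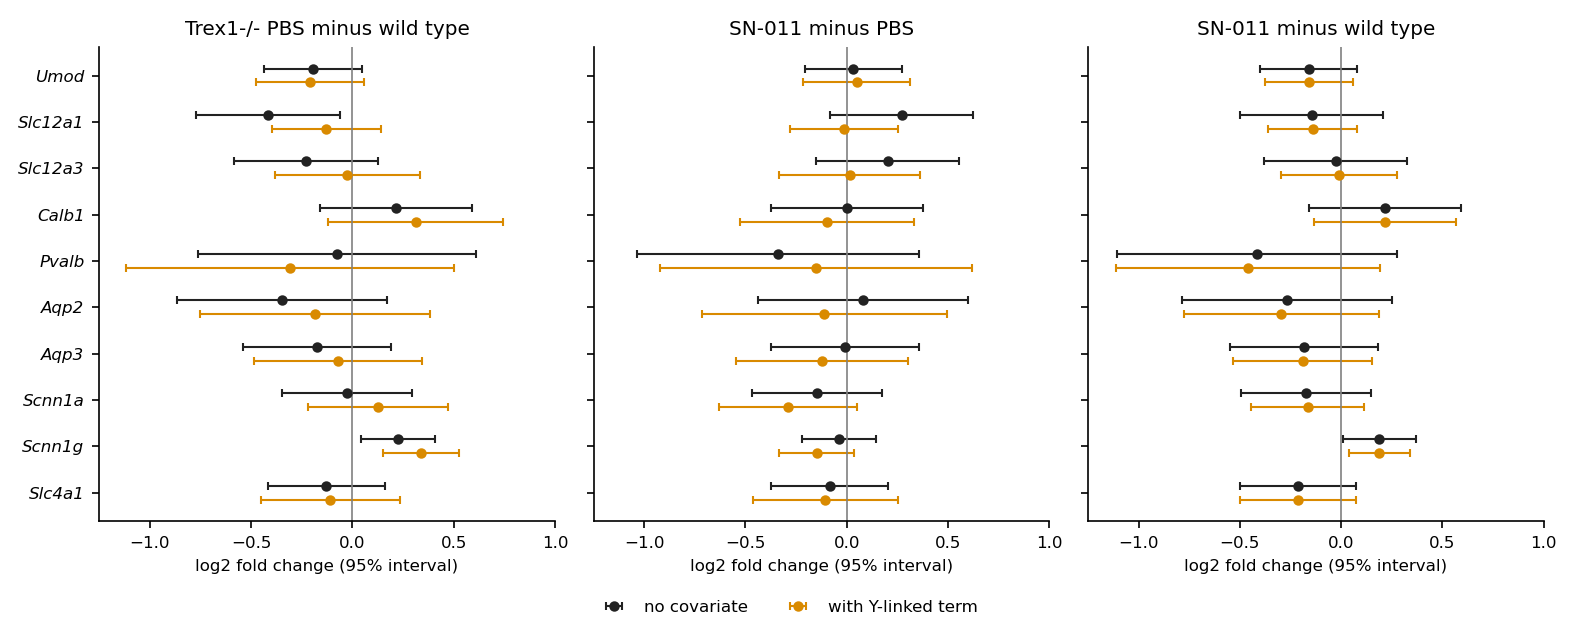
Fitted differences of the 10 genes. The x axis is the log2 fold change with its 95% interval for PBS-treated Trex1-/- minus wild type, SN-011 minus PBS and SN-011 minus wild type, from edgeR over 9 libraries; black points are fits with no covariate and orange points fits with a term for Y-linked reads. Only the intervals of Slc12a1 in the first panel and Scnn1g in the first and the third lay off 0 without the term; with it, Slc12a1 moved from -0.42 to -0.13.

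The median log2 fold change of the 10 members was -0.15 between PBS-treated KO and WT, beside 0.0028 over all genes tested, with 8 of 10 below 0. It was -0.0023, beside -0.0053, between SN-011 and PBS, with 5 of 10 below 0, and -0.17, beside -0.0034, between SN-011 and WT, with 8 of 10 below 0. Across the Y-linked split the members' median, present minus absent, was -0.16, beside -0.014 over all genes, with 8 of 10 below 0. These medians are given with no test.

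Compared per kilobase of exon, the members differed widely. Umod led at 1950 ± 148 CPM per kilobase (mean ± SD of 9 libraries), followed by Aqp2 at 559 ± 132 and Slc12a1 at 365 ± 66.1. Slc12a3 (162 ± 23.7), Calb1 (158 ± 26.0) and Aqp3 (98.2 ± 15.8) came next, then Scnn1a (59.2 ± 7.70), Scnn1g (28.4 ± 2.39), Pvalb (16.4 ± 4.85) and Slc4a1 (15.6 ± 1.96). Neighbours whose library values overlapped were Aqp2 with Slc12a1, Slc12a3 with Calb1, Calb1 with Aqp3, and Pvalb with Slc4a1; the other neighbours did not overlap. The order was the same when each gene was divided by its longest transcript, although Slc12a3, whose exons sum to 11119 bases against 4310 in that transcript, then stood at 418 CPM per kilobase.

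**Figure D3:**
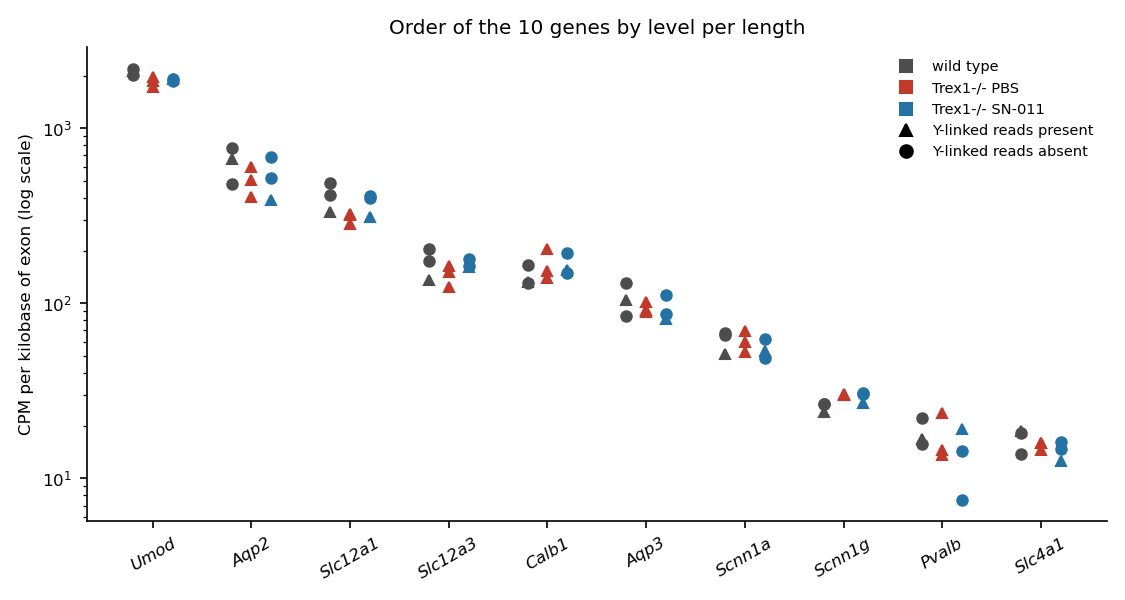
Levels of the 10 genes per length. The y axis is CPM per kilobase of exon on a log scale and the x axis the genes in descending order of their mean; colors are wild type, PBS-treated and SN-011-treated Trex1-/- libraries, and triangles carry Y-linked reads. Umod stood at 1717 to 2196 and Slc4a1 at 12.6 to 18.6 CPM per kilobase.

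Other genes of the same segments were read from lists of markers, none of which holds a member. Of 19 thick limb genes tested, 0 were higher and 1 was lower in PBS-treated KO than in WT, beside 1.44% and 0.439% of all genes, with a median log2 fold change of -0.27 and 14 of 19 below 0. The one lower gene was Cldn19, a tight-junction claudin of the thick limb's magnesium and calcium path, and it was the only gene called in the 5 lists from thick limb to hormone pathway in these comparisons. Cldn19 stood at 65.8, 88.7 and 71.3 CPM in WT, 41.5, 47.1 and 50.3 in PBS-treated KO and 48.2, 47.7 and 49.9 in SN-011-treated KO kidneys. All 6 mutant libraries lay below all 3 WT libraries. Its log2 fold changes against WT were -0.70 (SE 0.117, edgeR adjusted p = 0.0125) for PBS-treated KO and -0.63 (SE 0.117, edgeR adjusted p = 0.0329) for SN-011, the latter also the only thick limb call there, beside 0.823% of all genes higher and 0.457% lower. The first call missed the threshold without KO replicate 1 (-0.63, edgeR adjusted p = 0.0709), without KO replicate 2 (-0.72, 0.0593), with the Y-linked term (-0.65, 0.0596) and in the libraries with Y-linked reads only (-0.62, 0.0787). The second missed it without WT replicate 1 (-0.72, edgeR adjusted p = 0.0572) or 2 (-0.50, 0.106), without KO replicate 1 (0.0529), 2 (0.0642) or 3 (0.0542), each at -0.63, and without SN-011 replicate 1 (-0.63, 0.0781) or 3 (-0.65, 0.0533). It also missed it in a fit of the 6 libraries alone (-0.63, edgeR adjusted p = 0.110) and in the libraries with (-0.56, 0.131) or without (-0.66, 0.0595) Y-linked reads only, and kept it with the Y-linked term (-0.63, 0.0172). Between SN-011 and PBS the genes with the smallest p, neither called, were Irx1, a segment transcription factor, at -0.40 and the calcium-sensing receptor gene Casr at 0.32 (edgeR adjusted p = 0.377 and 0.430). Without SN-011 replicate 2, Irx1 passed at -0.59 (edgeR adjusted p = 0.0333). Irx1 was at -0.20 and Casr at 0.20 with the Y-linked term (edgeR adjusted p = 0.708 and 0.742). Without SN-011 replicate 3 Irx1 was at -0.22, and without KO replicate 3 Casr was at 0.17.

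No gene of the distal convoluted tubule (18 tested), principal cell and connecting tubule (19), intercalated cell (22) or salt and water hormone pathway (20) lists passed the edgeR test in any comparison. Their medians were -0.088, -0.15, -0.13 and -0.15 between PBS-treated KO and WT, 0.15, 0.083, 0.15 and 0.10 between SN-011 and PBS, and 0.048, -0.13, 0.042 and -0.077 between SN-011 and WT. In the distal convoluted tubule list the smallest p between PBS-treated KO and WT were those of Slc16a7, a monocarboxylate transporter gene, at -0.28, and Ppp1r1a, a phosphatase inhibitor gene, at -0.36 (edgeR adjusted p = 0.315 and 0.337), which with the Y-linked term were at -0.067 and -0.058. Between SN-011 and PBS they were those of the calcium pump gene Atp2b1 at 0.33 and the sodium and calcium exchanger gene Slc8a1 at 0.52 (edgeR adjusted p = 0.289 and 0.317), Slc8a1 overlapping between the groups at 53.8 to 99.6 and 49.2 to 53.9 CPM. Without SN-011 replicate 1, its highest library, Slc8a1 was at 0.24, and Ppp1r1a was at -0.24 without WT replicate 2. Between SN-011 and WT they were those of Trpv5 and Atp2b1. The calcium channel gene Trpv5 stood at 22.5 to 26.8 CPM in WT, 25.0 to 30.9 in PBS-treated KO and 31.9 to 34.8 in SN-011 libraries, and Atp2b1 at 64.1 to 80.3, 71.5 to 78.6 and 87.8 to 105. Against WT, SN-011 libraries gave 0.43 for Trpv5 (SE 0.109, edgeR adjusted p = 0.0877) and 0.38 for Atp2b1 (SE 0.104, edgeR adjusted p = 0.0999); DESeq2 called both, at adjusted p-values of 0.0303 and 0.0407.

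In the principal cell list, Npnt (nephronectin, a matrix protein) stood at 344, 419 and 295 CPM in WT, 241, 247 and 236 in PBS-treated KO and 225, 236 and 305 in SN-011 libraries, with a log2 fold change of -0.55 for PBS-treated KO against WT (SE 0.148, edgeR adjusted p = 0.106). It was -0.36 with the Y-linked term (edgeR adjusted p = 0.404), -0.30 in the libraries with Y-linked reads only (0.373) and -0.41 without WT replicate 2 (0.363). It passed by DESeq2 (adjusted p = 0.0102) and edgeR's exact test (0.00668), and by edgeR's quasi-likelihood test without the low-count filter (0.0232), with the 6 libraries compared (0.0400) and without WT replicate 3 (-0.67, 0.0466). SN-011 against WT gave -0.47 for Npnt (edgeR adjusted p = 0.146), which passed by DESeq2 alone of the alternatives run (adjusted p = 0.0448). Kcne1, a potassium channel subunit, was at 25.9 to 26.6 CPM in WT, 18.8 to 21.4 in PBS-treated KO and 19.1 to 22.7 in SN-011 libraries, at -0.37 and -0.36 against WT (edgeR adjusted p = 0.102 and 0.101; edgeR's exact test gave 0.0322 for the first). Krt18, a keratin, and Gata3, a transcription factor, had the smallest p between SN-011 and PBS, at 0.46 and 0.30 (edgeR adjusted p = 0.281 and 0.338).

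In the intercalated cell list, Atp6v0a4, a proton pump subunit, stood at 0.23 between PBS-treated KO and WT (edgeR adjusted p = 0.332), the chloride transporter gene Slc26a7 at -0.49 (0.336), the transcription factor gene Dmrt2 at 0.52 between SN-011 and WT (0.190) and the exchanger gene Slc4a9 at 0.24 between SN-011 and PBS (0.508). Slc26a7 was at -0.26 and Slc4a9 at 0.069 with the Y-linked term. Atp6v0a4 was at 0.14 without KO replicate 1 and Dmrt2 at 0.35 without SN-011 replicate 1. In the hormone pathway list, Prkar2b, a regulatory subunit of protein kinase A, ran at 13.6, 7.59 and 14.4 CPM in WT, 6.39, 4.09 and 5.97 in PBS-treated KO and 8.90, 4.29 and 6.77 in SN-011 libraries. Its log2 fold change of PBS-treated KO against WT was -1.11 (SE 0.311, edgeR adjusted p = 0.121). The fit holding the Y-linked term gave -1.04 (edgeR adjusted p = 0.279). Prkar2b passed by DESeq2 (adjusted p = 0.0109) and edgeR's exact test (0.00260), and by edgeR's quasi-likelihood test with no low-count filter (0.0105), with the replicate block (0.0107), with the 6 libraries compared (0.0497), in libraries with Y-linked reads only (-1.40, 0.0302) and without SN-011 replicate 2 (0.0417). Leaving out any of the other 8 libraries gave -1.35 to -0.94 and adjusted p-values of 0.0808 to 0.391. Agtr1a, the angiotensin receptor gene, was at 23.2 to 29.8 CPM in SN-011 libraries, below the 30.5 to 40.9 of PBS-treated KO and the 34.4 to 38.7 of WT, at -0.43 and -0.45 (edgeR adjusted p = 0.287 and 0.121). The clock gene Per1 stood at -0.42 between PBS-treated KO and WT (edgeR adjusted p = 0.253; with the Y-linked term, -0.21 and 0.705), and Tsc22d3, a gene induced by corticosteroids, at 0.61 between SN-011 and PBS (0.416), its SN-011 values being 128, 214 and 86.5 CPM. In the libraries with Y-linked reads only, where SN-011 replicate 2 is the one SN-011 library, Tsc22d3 passed at 1.22 (edgeR adjusted p = 0.00715), and without that library it was at 0.20 (edgeR adjusted p = 0.560).

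**Figure D4:**
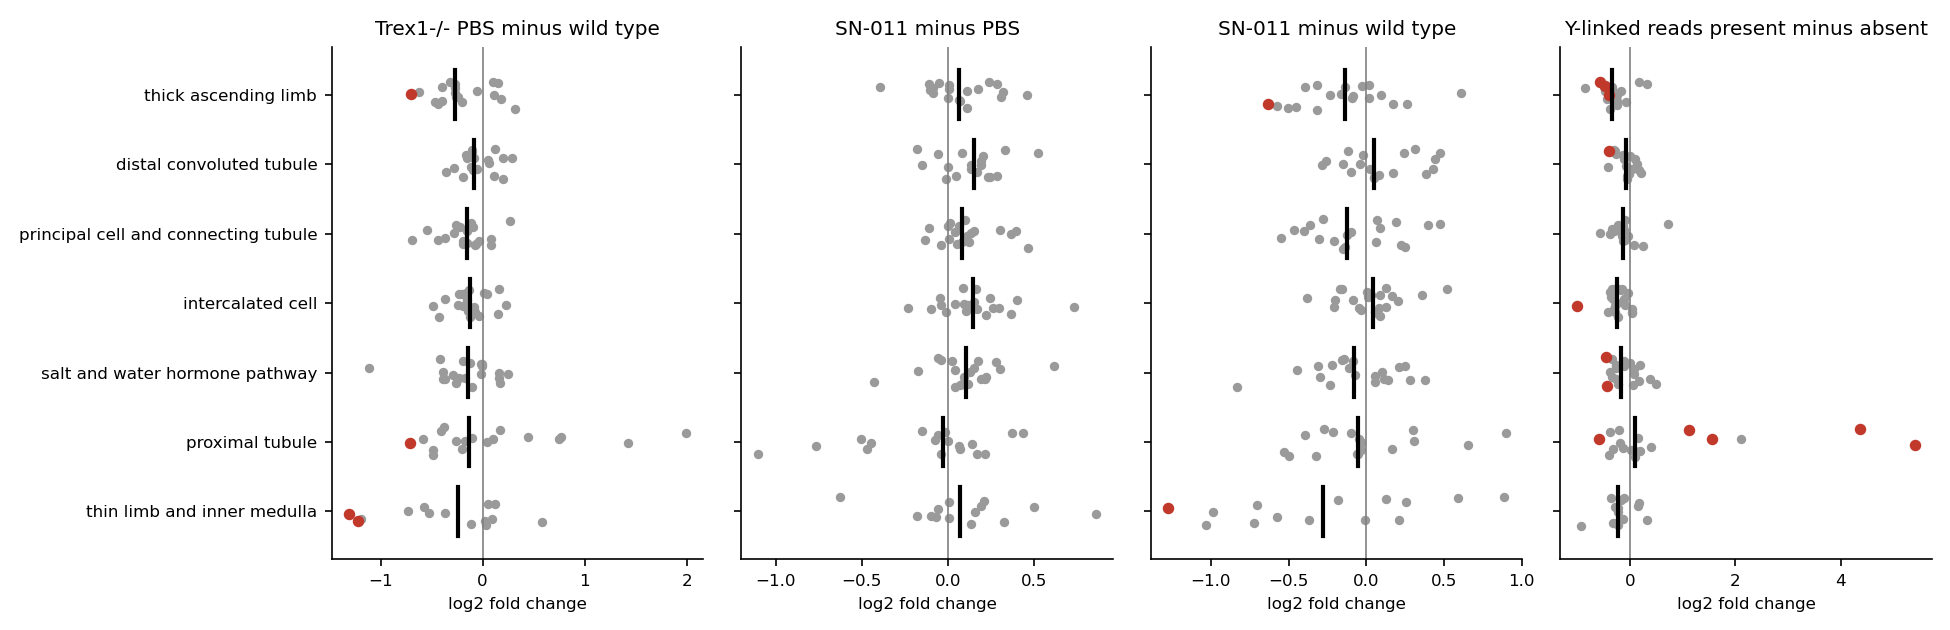
Genes of the nephron segments. Each point is 1 tested gene, the x axis its log2 fold change in the comparison named above the panel (the x scales differ between panels), rows are lists, black bars are list medians and red points pass an edgeR adjusted p of 0.05. In the thick ascending limb row 1 gene, Cldn19, was red in the panels against wild type, and the row's median was -0.36 in the panel of Y-linked reads present minus absent.

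The difference seen for Slc12a1 across the Y-linked split was read in the same lists. In the fit with a mean per group and the Y-linked term, 607 genes, or 3.65% of those tested, passed an adjusted p of 0.05 for that term, 418 higher and 189 lower where such reads were present, and 0 of the 10 members were among them. As above, the term rests on the WT and SN-011 libraries. Of the thick limb list, 17 of 19 genes were below 0, with a median of -0.36 beside -0.014 over all genes, and 3 were called lower, among them Bsnd, which encodes the channel subunit barttin, at -0.59 (edgeR adjusted p = 0.0215), and the transcription factor gene Pou3f3 at -0.48 (0.0222). Other lists lay below 0 as well: 19 of 22 intercalated cell genes (median -0.26), 16 of 19 principal cell genes (-0.13), 11 of 14 genes of the thin limb and inner medulla (-0.23) and 7 of 8 podocyte genes (-0.35). All 12 leukocyte and all 8 endothelial genes were above 0, at medians of 0.41 and 0.13, and no difference between lists was tested. The thick limb list's summed level was 3931 to 4414 CPM in the 5 libraries with Y-linked reads and 4626 to 5524 CPM in the 4 without. Klhl3, part of the ligase that controls the kinases upstream of NCC, and Nr3c2, the aldosterone receptor gene, both of the hormone pathway list, were also lower, at -0.46 (edgeR adjusted p = 0.0130) and -0.45 (0.0244), as were Emx1 of the distal convoluted tubule list (-0.40, edgeR adjusted p = 0.0395) and Car15 of the intercalated cell list (-1.01, edgeR adjusted p = 0.0395). Of 18 proximal tubule genes 4 were higher and 1 lower. Proximal genes summed to 28690 to 43090 CPM with and 18280 to 28980 CPM without Y-linked reads. Much of this came from the gene Kap, at 7870 to 18800 CPM with and 648 to 6810 without. Slc34a1, also high, overlapped, at 4730 to 5570 CPM with and 4300 to 5070 without. Since CPM are shares of a library, the part of the proximal difference in the lower thick limb values was not tested.

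For each member the 2 non-member genes with the most similar pattern over the 9 libraries, out of 14832 genes averaging 1 CPM or more, were found by Pearson r of log2 CPM. They were Gm14597 (r = 0.95) and Klhdc8a (0.95) for Umod, Gm16505 (0.98) and Zfp248 (0.97) for Slc12a1, Prdm2 (0.95) and Abca5 (0.95) for Slc12a3, and Atad1 (0.91) and Ndufc1 (0.89) for Calb1. Pvalb was followed by Hpgds (0.95) and 4933440N22Rik (0.95), Aqp2 by Tprgl (0.94) and Tmem106c (0.94), Aqp3 by Hacd4 (0.92) and Pdzrn4 (0.90), and Scnn1a by Cacng7 (0.94) and Abca8b (0.91). Terf2 (0.98) and Armt1 (0.94) were closest to Scnn1g, and Ssna1 (0.96) and Prelid2 (0.95) to Slc4a1. None of these 20 genes is on a segment list, and the highest r was at least 0.91 for every member. Each was picked from 14832 genes over 9 libraries, where r this high can arise between unrelated genes, and none was tested. Some were low, among them Hpgds at a mean of 1.32, Gm16505 at 2.11 and Gm14597 at 2.25 CPM. Between members of one segment r was 0.47 for Umod with Slc12a1, -0.24 for Slc12a3 with Calb1, -0.29 for Slc12a3 with Pvalb, 0.36 for Calb1 with Pvalb, 0.90 for Aqp2 with Aqp3, 0.086 for Scnn1a with Scnn1g and -0.21 to 0.19 for either water channel gene with either of these. Over all pairs of members it was lowest at -0.74, for Umod of the thick limb with Scnn1g of the collecting duct.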

How the data were processed

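Per the labels and the study's methods, the authors trimmed read pairs with Trimmomatic, aligned them with HISAT2 to mm10 and deposited the raw featureCounts count per gene of each library; versions, annotation and the strand setting of the counting are not given in the sources used here. Of 54532 Ensembl identifiers, 54495 matched a mouse symbol. In R 4.3.3, edgeR 4.0.16 fitted all 9 libraries with TMM factors after filterByExpr (minimum count 10, minimum total 15), with 1 mean per group; adjusted p-values are Benjamini-Hochberg over 16646 genes and calls are at 0.05. CPM, list sums included, use TMM-scaled library sizes. DESeq2 1.42.0, other filters and scalings, a replicate block, a Y-linked term and left-out libraries were alternatives; fits of libraries with or without Y-linked reads alone and an interaction term were added after seeing the data. Scripts were tested on simulated data. The members, marker lists and tests were chosen with earlier results of these data known. Named genes are the members, called list genes or else the 2 of smallest p per list and comparison, and the 2 most similar genes per member. Genes named for the Y-linked term were among those it called. Scnn1b, Kap, Slc34a1, Slc5a3, Slc6a6 and the tubular injury genes were named after their values were seen. Of the genes these rules name, 2 are not reported here. At these depths every member had at least 139 counts in each library. Gene positions are from GENCODE vM21.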

Additional observations from a re-analysis of the deposited data

Results flagged for a closer look

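SN-011-treated KO against WT kidneys gave opposite directions for 2 members in the libraries with and without Y-linked reads, with every library of one kind on one side. For Pvalb the log2 ratio of mean CPM was 0.20 with Y-linked reads (1 library against 1) and -0.79 without (2 against 2). For Scnn1a it was 0.046 with and -0.27 without. An interaction term fitted over all 9 libraries, chosen after seeing the data, gave a difference between the kinds of library of 0.99 for Pvalb (SE 0.543, edgeR adjusted p = 0.492) and 0.32 for Scnn1a (SE 0.248, edgeR adjusted p = 0.643), so neither passed. The same term was -0.72 for Aqp2, -0.52 for Slc4a1 and 0.37 for Slc12a3. In these genes the direction was the same in both kinds of library, or libraries of a kind overlapped. The 1 library per group with Y-linked reads was assumed to vary like the others, and the cause was not tested. Groups of 3 libraries were not examined for outlying samples.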

How the results depend on the processing

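No member passed the threshold under any alternative, and of 1005 values of named genes recomputed, 940 kept their direction and side of the threshold, 33 changed sign without passing it, 18 passed and 14 missed it. Counts of the members were 139 or more in every library. In all fits a group left with 1 library was assumed to vary like the others.

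Counts of called genes moved more. Between PBS-treated KO and WT, 313 became 707 with no filter, 726 by DESeq2, 1365 by edgeR's exact test, 198 with the Y-linked term and 751 with the 6 libraries compared, and 153 to 774 without 1 library (160 and 162 without WT replicate 1 or 2, 157 and 153 without KO replicate 1 or 2, 774 without SN-011 replicate 2). Between SN-011 and PBS, 0 became 127, 183 and 132 by the first 3 of these and 107 in libraries with Y-linked reads only, and 0 to 519 without 1 library (519 without SN-011 replicate 2, 22 without SN-011 replicate 3, 1 without KO replicate 2). Between SN-011 and WT, 213 became 607, 816 and 324 by the first 3, 656 with the Y-linked term, 43 with 6 libraries, 356 and 461 in libraries with and without Y-linked reads only, and 38 to 376 without 1 library (38 and 48 without WT replicate 1 or 2, 102, 106 and 124 without KO replicate 1, 2 or 3, 376 without SN-011 replicate 2). The cause was not tested. The replicate block gave 312, 0 and 231 genes and 0 members, and passed Prkar2b (PBS-treated KO against WT, edgeR adjusted p = 0.0107); same-numbered libraries' deviations correlated at -0.29 to 0.24, so the numbers are not read as pairs, although each PBS-treated KO library correlated best with the SN-011 library of its number (0.098 to 0.24).

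Sign changes of members, none past the threshold, were as follows. With the Y-linked term, PBS-treated KO against WT gave 0.13 for Scnn1a, and SN-011 against PBS -0.012 for Slc12a1, -0.097 for Calb1 and -0.11 for Aqp2. With no filter, SN-011 against PBS gave -0.0078 for Calb1. In libraries with Y-linked reads only, PBS-treated KO against WT gave 0.10 for Slc12a3, 0.044 for Pvalb and 0.23 for Scnn1a, SN-011 against PBS -0.073 for Calb1, 0.17 for Pvalb and -0.35 for Aqp2, and SN-011 against WT 0.26 for Slc12a3, 0.22 for Pvalb and 0.068 for Scnn1a. Members also changed sign on leaving out 1 library, over the ranges that follow. SN-011 against PBS ran over -0.011 to 0.086 for Umod, -0.12 to 0.19 for Calb1, -0.15 to 0.26 for Aqp2, -0.16 to 0.078 for Aqp3, -0.073 to 0.013 for Scnn1g and -0.17 to 0.0040 for Slc4a1. PBS-treated KO against WT ran over -0.37 to 0.087 for Pvalb and -0.14 to 0.059 for Scnn1a, and SN-011 against WT over -0.17 to 0.12 for Slc12a3. In all, 24 of the 30 member values moved by over 1.5 times or changed sign without 1 library, 15 of them keeping their sign. PBS-treated KO against WT then ran over -0.37 to -0.087 for Slc12a3 (the latter without WT replicate 1), 0.026 to 0.32 for Calb1 (the former without KO replicate 3), -0.52 to -0.19 for Aqp2 (the latter without WT replicate 2), -0.33 to -0.0036 for Aqp3 (the latter without WT replicate 2) and -0.26 to -0.055 for Slc4a1 (the latter without WT replicate 3). SN-011 against PBS ran over 0.10 to 0.29 for Slc12a3, -0.67 to -0.041 for Pvalb and -0.25 to -0.036 for Scnn1a, and SN-011 against WT over -0.29 to -0.011 for Slc12a1, 0.090 to 0.33 for Calb1, -0.75 to -0.12 for Pvalb, -0.50 to -0.091 for Aqp2, -0.33 to -0.013 for Aqp3, -0.29 to -0.099 for Scnn1a and -0.34 to -0.13 for Slc4a1. Divided by the longest transcript, Slc12a1 moved to 444, Slc12a3 to 418 and Scnn1a to 70.0 CPM per kilobase. The cause, beyond the other length, was not tested.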
